A study of Mus musculus with 8 samples.

Results

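The Wnt ligands, their receptors and the secreted or membrane proteins that modulate them were followed in cultured mouse muscle stem cells given a short pulse of BMP4 or BMP6. The genes were taken by name from the expression table: 19 Wnt ligands, 10 Frizzled (Fzd) receptors, the co-receptors Lrp5 and Lrp6, 4 Sfrp, 4 Dkk and 4 Rspo genes, Kremen1 and Kremen2, Lgr4 and Lgr5, and Axin1 and Axin2. These are 49 of 55223 loci in the table. Of the 49, 24 had a mean of at least 0.5 TPM (transcript abundance per length, scaled to the library) over the 8 libraries and could be tested, 25 did not, and 16908 loci in all were tested.

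Wnt proteins are secreted lipid-modified ligands that bind a Frizzled receptor together with Lrp5 or Lrp6. This stops the degradation of beta-catenin, which then acts on target genes such as Axin2 with the TCF and LEF factors, while other Wnt ligands act through Frizzled without beta-catenin. Sfrp proteins bind Wnt ligands outside the cell, Dkk proteins bind Lrp5 and Lrp6 with Kremen proteins as their receptors, and Rspo proteins bind Lgr receptors and keep Frizzled at the cell surface. In skeletal muscle, Wnt signals are known for their part in the growth, polarity and differentiation of muscle stem cells, and BMP signals for holding these cells back from differentiation.

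The cells came from muscle of female wildtype (C57BL/6J) mice 6 to 8 weeks old and were expanded for 2 days on Matrigel, a basement membrane gel. Every culture, the controls included, then spent 6 h without serum in 200 ng/ml of a soluble BMP receptor (BMPR-IA/ALK3-Fc), which binds BMPs left in the medium, before a pulse of 1 h. Isolations 48 and 54 each gave 1 vehicle library (group vehicle_a) and 1 library given 100 ng/ml BMP4, and isolations 75 and 77 each gave 1 vehicle library (vehicle_b) and 1 given 100 ng/ml BMP6, the vehicle being 4 mM HCl with 0.1% BSA. Each group thus held 2 libraries, and each BMP was tested in its own experiment, so the ligand and the experiment cannot be told apart. The labels do not say whether an isolation pooled several animals, and p-values here measure only the spread between these libraries. In every pair of values below, isolation 48 stands before 54 and isolation 75 before 77.

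Depth, estimated from the deposited coverage, was 48012828 to 58002740 reads per library. Muscle stem cell identity was present in all libraries, with Pax7 at 11.1 to 16.9 TPM and Myod1 at 422 to 839 TPM. All 11 genes of differentiating myocytes were also detected, and their sum differed between cultures: 6410 and 21640 TPM in vehicle_a, 5839 and 21172 in BMP4, 686 and 971 in vehicle_b, and 850 and 949 in BMP6. The experiment of isolations 48 and 54 was therefore richer in myocyte transcripts, and both libraries of isolation 54 stood apart within it. In a principal component analysis the experiments lay apart on the component that held 78.0% of the variance. The 7 immune genes summed to 12.2 to 18.8 TPM, of which Itgam gave 10.9 to 17.1, with Ptprc and Adgre1 listed at 0 in all libraries, and the 7 endothelial genes summed to 0.566 to 1.87 TPM. A BMP response was measured in reference genes: Smad7, an inhibitor induced by BMP signals, went from 3.36 and 2.01 TPM in vehicle_a to 27.3 and 22.5 in BMP4, and from 5.01 and 6.27 in vehicle_b to 29.3 and 32.1 in BMP6.

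Transcripts of most of the pathway's secreted proteins were near or below detection. Of the 49 genes, 22 reached a group mean of 1 TPM: all 10 Fzd genes, both Lrp, both Kremen, Lgr4, Axin1, Sfrp2, Dkk3 and the ligands Wnt4, Wnt7b, Wnt9a and Wnt10b. The 5 ligands that could be tested were those 4 and Wnt11. Of the 14 other ligands, Wnt3a, Wnt8a, Wnt8b, Wnt9b and Wnt16 were listed at 0 in every library, and the highest single value among the rest was 0.839 TPM, for Wnt5b in the vehicle library of isolation 54. No Rspo gene was tested: Rspo2 and Rspo4 were at 0 throughout, Rspo3 stayed at or under 0.0183 TPM, and Rspo1 had 0.715 TPM at most. Dkk1 and Dkk4 were likewise at 0 in all libraries, and Sfrp1 lay at 0.295 to 0.574 TPM. At the edge of the filter Lgr5 and Dkk3 passed with means of 0.512 and 0.554 TPM, and Wnt10a and Wnt5b did not with 0.493 and 0.478 TPM.

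**Figure D1:**
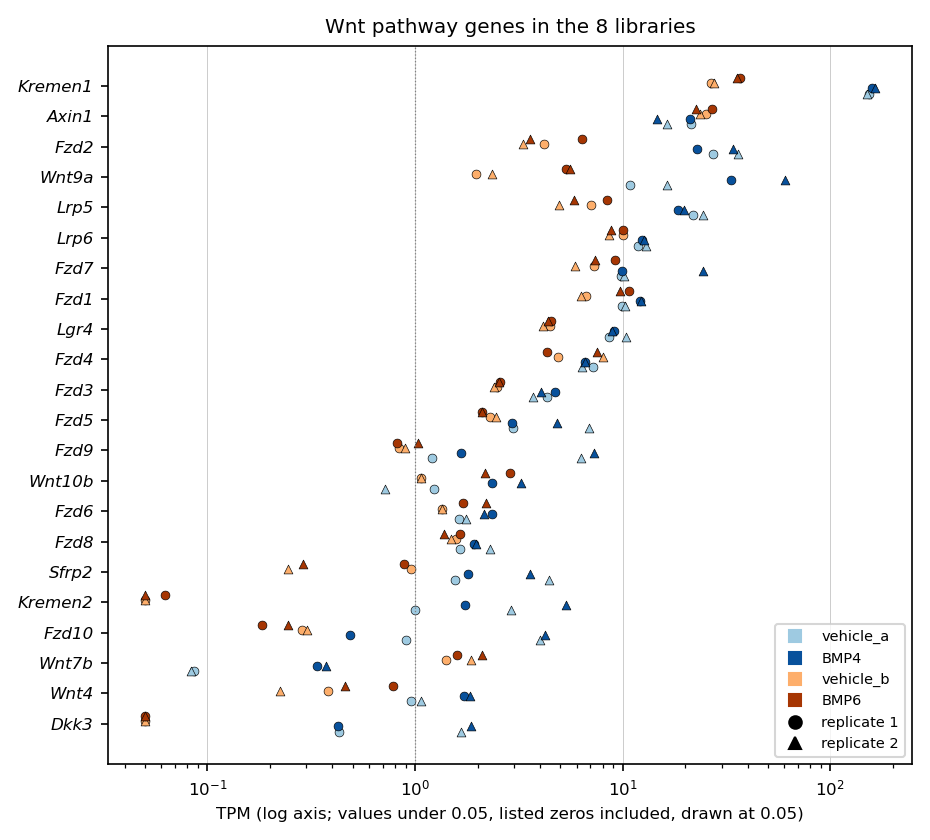
TPM on a log axis (horizontal) of the 22 genes with a group mean of at least 1 TPM (vertical, ordered by overall level) in the 8 libraries. Colours mark the 4 groups, circles replicate 1 (isolations 48 and 75) and triangles replicate 2 (isolations 54 and 77), and values under 0.05 TPM are drawn at 0.05. Kremen1 lies between 26.6 and 165 TPM, and the orange and brown points of isolations 75 and 77 lie left of the blue points for most genes.

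Wnt9a was the ligand with the highest level and, of the 24 genes, the one with the largest mean log2 change after the pulse. It is a Wnt family member known from joint and limb development. Its locus lies on chromosome 11 at 59197754 to 59224378 on the plus strand (GRCm39, the build of the files), and next to it, 16176 bases away on the other strand, lies Wnt3a, which was listed at 0 in all 8 libraries. Wnt9a stood at 10.9 and 16.3 TPM in vehicle_a and at 33.2 and 60.2 TPM in BMP4. In the other experiment it stood at 1.97 and 2.35 TPM in vehicle_b and at 5.35 and 5.58 TPM in BMP6. In both experiments the stimulated libraries lay above their vehicles without overlap, by 3.06-fold and 3.70-fold after BMP4 and by 2.71-fold and 2.38-fold after BMP6.

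The call for Wnt9a depended on whether the isolations were paired. Without the block, the log2 change was 1.71 (SE 0.31) after BMP4, with an adjusted p of 0.437 in limma, and 1.17 (SE 0.31) after BMP6, with an adjusted p of 1.00. With the isolation as a block, the same changes had an SE of 0.09 and adjusted p values of 0.0101 after BMP4 and 0.0452 after BMP6, so that Wnt9a rose in both experiments by that fit. The mean of both changes was 1.44, with an adjusted p of 0.206 (SE 0.22) without the block and 0.00502 (SE 0.07) with it. Leaving out isolation 75 or 77 ended the blocked call for BMP6 (adjusted p 0.435 and 0.342), and leaving out isolation 75 ended that for the mean (adjusted p 0.0513). Without isolation 54, the one rich in myocyte transcripts, the change after BMP4 was that of isolation 48 alone (log2 change 1.57), and its adjusted p of 0.0367 in the blocked limma fit assumes that the lone pair varies like isolations 75 and 77. The response to BMP6 differed from that to BMP4 by -0.54 on the log2 scale (SE 0.44 without and 0.13 with the block) and did not pass the test either way, with adjusted p values of 1.00 and 0.301.

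Wnt9a carried most of the summed ligand transcripts in isolations 48 and 54. The 19 Wnt genes summed to 14.6 and 20.3 TPM in vehicle_a and to 39.6 and 69.1 TPM in BMP4. The sum was 5.83 and 7.23 TPM in vehicle_b and 12 and 12.5 TPM in BMP6. Wnt9a made up 74.3% and 80.2% of the sum in vehicle_a, 83.7% and 87.2% in BMP4, 33.8% and 32.5% in vehicle_b, and 44.7% and 44.6% in BMP6. The other 18 ligands together were also higher in each stimulated library than in its vehicle: 3.75 and 4.02 TPM against 6.44 and 8.85 for BMP4, and 3.86 and 4.88 TPM against 6.61 and 6.93 for BMP6.

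**Figure D2:**
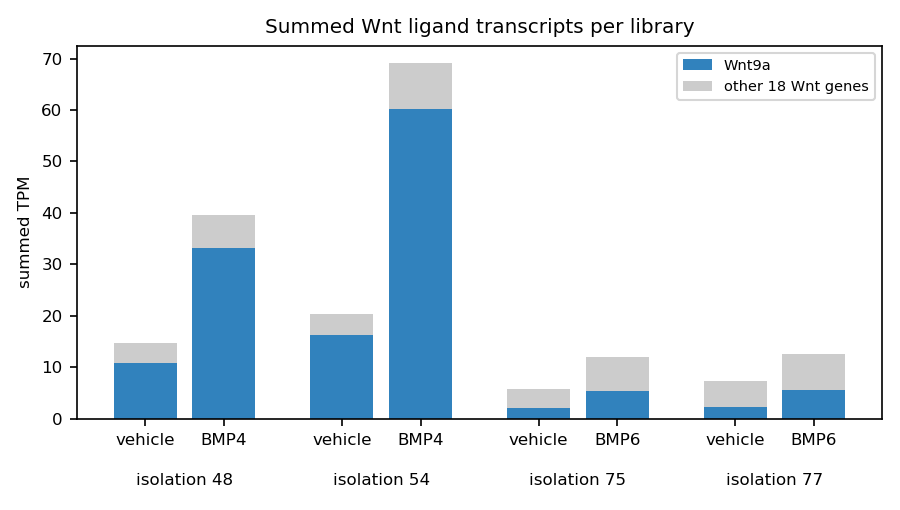
Summed TPM of the 19 Wnt ligand genes (vertical axis, from 0) in each of the 8 libraries, arranged by isolation with the vehicle on the left, split into Wnt9a (blue) and the other 18 ligands (grey). The sums in the BMP4 libraries reach 39.6 and 69.1 TPM, and the blue part is the larger one in isolations 48 and 54 and the smaller one in isolations 75 and 77.

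The remaining ligands above the filter were also higher after the pulse in every isolation. Wnt10b, a ligand of the beta-catenin branch known for opposing fat cell formation, stood at 1.24 and 0.717 TPM in vehicle_a and 2.36 and 3.25 in BMP4, and at 1.07 and 1.07 in vehicle_b and 2.86 and 2.17 in BMP6. Its log2 change was 1.17 (SE 0.25) after BMP4 and 0.93 (SE 0.25) after BMP6, and neither passed in limma (adjusted p 0.588 and 1.00, and 0.121 and 0.616 with the block). With the isolation as a random term in limma, the change after BMP4 passed (adjusted p 0.0349) and that after BMP6 did not (adjusted p 0.208), and the mean of both passed (adjusted p 0.0168). Stimulated and vehicle libraries of Wnt10b did not overlap, and the log2 change between its vehicles was 0.11 (SE 0.25).

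Wnt4, which acts in kidney and gonad development, had 0.957 and 1.07 TPM in vehicle_a and 1.71 and 1.84 in BMP4, and 0.381 and 0.224 in vehicle_b and 0.782 and 0.458 in BMP6. Its 4 changes were close to each other, at 0.60, 0.57, 0.54 and 0.41 on the log2 scale for isolations 48, 54, 75 and 77, and their mean of 0.53 (SE 0.15) did not pass (adjusted p 1.00, and 0.148 with the block). It passed with the isolation as a random term in limma, at an adjusted p of 0.0237 for the mean and of 0.0456 after BMP4. Wnt11, a ligand known mainly for the branch without beta-catenin, had 0.242 and 0.139 TPM in vehicle_a, 0.482 and 1.44 in BMP4, 0.200 and 0.534 in vehicle_b and 0.424 and 1.04 in BMP6. Each stimulated library of Wnt11 lay above its own vehicle, but the vehicle of isolation 77 lay above the BMP6 library of isolation 75. Wnt11 had means of 0.191 TPM in vehicle_a and 0.367 in vehicle_b, both under the filter. It passed through its stimulated libraries (means of 0.962 in BMP4 and 0.731 in BMP6), so its direction is not free of the filter. Wnt7b had 0.0866 and 0.0834 TPM in vehicle_a, which rested on 12 and 11 estimated reads, 0.338 and 0.373 in BMP4, 1.41 and 1.86 in vehicle_b and 1.59 and 2.11 in BMP6. All 4 libraries of isolations 75 and 77 lay above all 4 of isolations 48 and 54.

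The 250 bases before the gene start are shown for 4 genes that were higher than their vehicle in all 4 isolations, to set the sequence next to the response. Of 10 such genes 5 have a single entry in the promoter table, and these are the 4 with the smallest p for the mean response. They are RefSeq sequences of GRCm38.p6, an older build than that of the files, at chr11:59306680-59306929 on the plus strand for Wnt9a, chr15:98778151-98778400 on the minus strand for Wnt10b, chr5:4758217-4758466 on the minus strand for Fzd1 and chr4:137277385-137277634 on the plus strand for Wnt4. Capitals mark GGCGCC, a GC-rich element known to bind SMAD1 and SMAD5, and GTCT or its complement AGAC, the short element known to bind SMAD4.
Wnt9a: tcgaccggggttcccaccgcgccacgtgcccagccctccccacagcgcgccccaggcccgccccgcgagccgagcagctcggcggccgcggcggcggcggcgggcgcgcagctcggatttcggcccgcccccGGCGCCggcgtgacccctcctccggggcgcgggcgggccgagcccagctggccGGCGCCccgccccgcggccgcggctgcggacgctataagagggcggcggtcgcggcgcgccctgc
Wnt10b: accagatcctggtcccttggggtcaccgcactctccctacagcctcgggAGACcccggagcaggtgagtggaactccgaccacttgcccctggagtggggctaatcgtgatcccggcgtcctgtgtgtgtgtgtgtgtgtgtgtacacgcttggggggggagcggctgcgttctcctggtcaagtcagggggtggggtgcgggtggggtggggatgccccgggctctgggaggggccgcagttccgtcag
Fzd1: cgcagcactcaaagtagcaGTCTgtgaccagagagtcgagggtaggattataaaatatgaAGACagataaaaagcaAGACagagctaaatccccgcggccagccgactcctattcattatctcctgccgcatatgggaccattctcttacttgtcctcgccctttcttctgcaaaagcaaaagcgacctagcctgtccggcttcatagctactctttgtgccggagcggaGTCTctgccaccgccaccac
Wnt4: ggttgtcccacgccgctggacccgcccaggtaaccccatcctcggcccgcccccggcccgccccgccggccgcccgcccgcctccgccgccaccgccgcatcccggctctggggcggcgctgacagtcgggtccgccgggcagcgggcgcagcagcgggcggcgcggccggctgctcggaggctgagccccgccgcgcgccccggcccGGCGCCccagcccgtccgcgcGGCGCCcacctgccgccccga
Both strands were searched. The windows of Wnt9a and Wnt4 each hold 2 copies of GGCGCC and no GTCT, that of Wnt10b holds 1 GTCT, and that of Fzd1 holds 4, with no GGCGCC in the last pair. Of 32851 promoter windows of the same length, 9.59% hold GGCGCC and 82.9% hold GTCT. The windows of Wnt9a and Wnt4 are 84.4% and 85.2% G and C, against a median of 52.4% over all windows. A match describes the letters only. Of the 49 genes, 30 have an entry in the table.

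Among the Frizzled receptors, Fzd1 was called with the isolation as a fixed block, for the mean of both responses. It stood at 9.89 and 10.2 TPM in vehicle_a and 12.2 and 12.2 in BMP4, and at 6.69 and 6.28 in vehicle_b and 10.8 and 9.66 in BMP6. The groups did not overlap in either experiment, and the fold was 1.23 and 1.2 after BMP4 against 1.61 and 1.54 after BMP6. Its mean log2 change over both experiments was 0.44 (SE 0.08) with an adjusted p of 0.355 in limma, and SE 0.04 with an adjusted p of 0.0338 with the block. The blocked call was lost without any 1 of the 4 isolations, with adjusted p values from 0.0688 to 0.299. After BMP6 alone the change was 0.61 (SE 0.12, adjusted p 0.769, and 0.0832 with the block), and after BMP4 alone it was 0.27 (SE 0.12).

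Of the other Frizzled receptors, Fzd6 and Fzd3 were higher than the vehicle in all 4 isolations by small amounts. Fzd6, which acts in planar polarity, had 1.63 and 1.77 TPM in vehicle_a, 2.35 and 2.14 in BMP4, 1.35 and 1.34 in vehicle_b and 1.70 and 2.2 in BMP6. Fzd3 had 4.32 and 3.69 TPM in vehicle_a, 4.71 and 4.03 in BMP4, 2.47 and 2.41 in vehicle_b and 2.56 and 2.53 in BMP6. Neither passed a test of the pulse.

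Fzd7, the receptor through which Wnt7a is known to act on muscle stem cells, had 9.86 and 10.2 TPM in vehicle_a, 9.89 and 24.5 in BMP4, 7.27 and 5.88 in vehicle_b and 9.19 and 7.32 in BMP6. Its single high value was the BMP4 library of isolation 54, whereas the BMP4 library of isolation 48 matched its vehicle. The 2 BMP4 libraries of Fzd7 thus differed more from each other than that of isolation 48 did from its own vehicle.

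Fzd4 and Fzd8 did not lie on the same side of their vehicle in all 4 isolations. Fzd4 had 7.24 and 6.40 TPM in vehicle_a, 6.61 and 6.61 in BMP4, 4.90 and 8.08 in vehicle_b and 4.30 and 7.55 in BMP6. Fzd8 had 1.66 and 2.31 TPM in vehicle_a, 1.92 and 1.96 in BMP4, 1.57 and 1.5 in vehicle_b and 1.64 and 1.37 in BMP6. Fzd5, the only one of the 24 genes that was lower than its vehicle in all 4 isolations, had 2.98 and 6.90 TPM in vehicle_a, 2.94 and 4.82 in BMP4, 2.29 and 2.45 in vehicle_b and 2.11 and 2.10 in BMP6. The difference of Fzd5 in isolations 48 and 75 was far smaller than that between its vehicles of isolations 48 and 54.

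**Figure D3:**
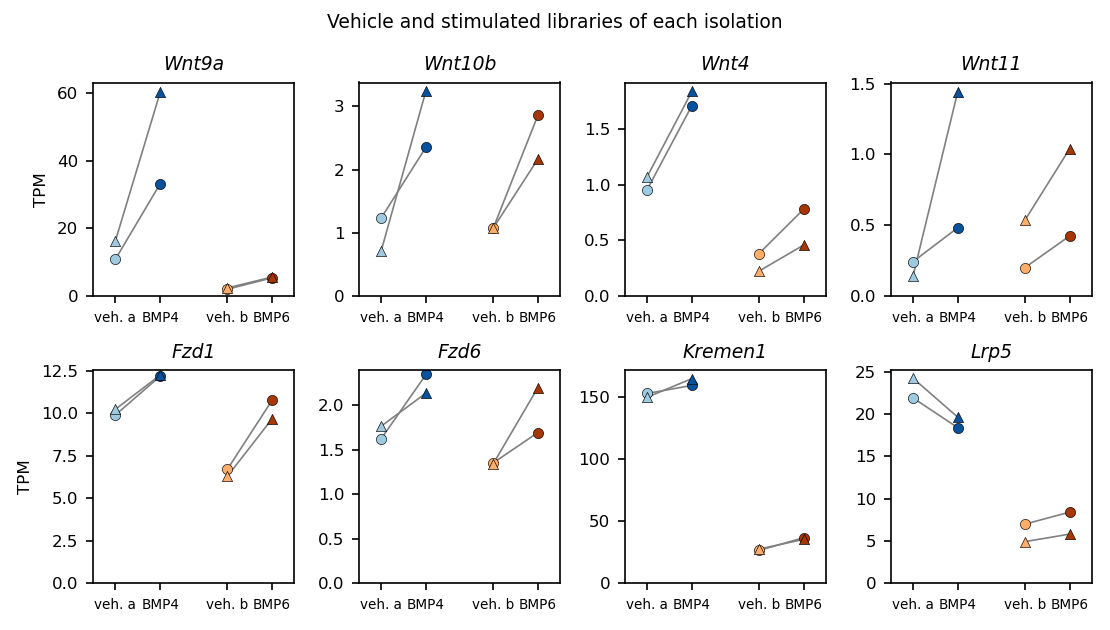
TPM (vertical axis, from 0, a separate scale in each panel) of 8 genes in each isolation, with its vehicle joined by a line to its stimulated library. The left pair of each panel is vehicle_a and BMP4, the right pair vehicle_b and BMP6, with circles for isolations 48 and 75 and triangles for isolations 54 and 77. Lines run upward in all 4 isolations for Wnt9a, Wnt10b, Wnt4, Wnt11, Fzd1, Fzd6 and Kremen1, and for Lrp5 they run downward in isolations 48 and 54 and upward in 75 and 77.

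The co-receptors showed no shared direction. Lrp5 had 21.9 and 24.3 TPM in vehicle_a, 18.4 and 19.6 in BMP4, 7.0 and 4.93 in vehicle_b and 8.42 and 5.83 in BMP6. It was lower than its vehicle in both isolations given BMP4 (log2 changes of -0.25 and -0.30) and higher in both given BMP6 (0.25 and 0.22). The difference between the responses was 0.51 (SE 0.31) and did not pass in limma, with an adjusted p of 1.00, and of 0.253 (SE 0.08) with the block. Lower in both isolations given BMP4 and higher in both given BMP6 were 2 of the 24 genes, Lrp5 and Fzd2 (9.41% of all loci), and 0 showed the opposite (7.52%). Lrp6, the other co-receptor, had 11.9 and 13.0 TPM in vehicle_a, 12.3 and 12.7 in BMP4, 10.1 and 8.60 in vehicle_b and 10.0 and 8.81 in BMP6, and lay within 0.05 log2 units of its vehicle in each isolation.

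Kremen1, the membrane receptor for Dkk proteins, was the most abundant of the 49 transcripts in every group. It had 153 and 149.9 TPM in vehicle_a, 159.5 and 165 in BMP4, 26.6 and 27.6 in vehicle_b and 36.8 and 35.5 in BMP6. The BMP6 libraries lay above their vehicles by 1.39-fold and 1.29-fold, and the BMP4 libraries by 1.04-fold and 1.10-fold. The log2 change after BMP6 was 0.41 (SE 0.09) with an adjusted p of 1.00 in limma, and of 0.103 (SE 0.05) with the block. It passed with the isolation as a random term in limma (adjusted p 0.0155, and 0.0137 for the mean of both responses). Without the block, Kremen1 also had the smallest p among the 24 genes for a difference between the responses, 0.31 (SE 0.13), with an adjusted p of 1.00, followed by Fzd1 with 0.35 (SE 0.16, adjusted p 1.00). With the block Lrp5 had the smallest p for this difference, followed by Kremen1 (SE 0.06, adjusted p 0.285 in limma). Kremen2 had 1.00 and 2.91 TPM in vehicle_a, 1.74 and 5.31 in BMP4, and was listed at 0 in 3 of the 4 libraries of isolations 75 and 77 and at 0.0625 TPM in the fourth.

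The last genes above the filter are an Rspo receptor, secreted inhibitors and a scaffold. Lgr4, a receptor of the Rspo proteins, had 8.58 and 10.3 TPM in vehicle_a, 9.12 and 8.93 in BMP4, 4.47 and 4.14 in vehicle_b and 4.53 and 4.35 in BMP6. Sfrp2, which binds Wnt ligands, had 1.57 and 4.44 TPM in vehicle_a, 1.81 and 3.58 in BMP4, 0.952 and 0.244 in vehicle_b and 0.889 and 0.288 in BMP6. Neither lay on the same side of its vehicle in all 4 isolations.

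Dkk3, a divergent member of the Dkk family, had 0.431 and 1.67 TPM in vehicle_a, 0.426 and 1.86 in BMP4 and at most 0.0261 TPM in isolations 75 and 77. Axin1, a scaffold of the complex that degrades beta-catenin, had 21.3 and 16.4 TPM in vehicle_a, 21.1 and 14.7 in BMP4, 25.3 and 23.6 in vehicle_b and 26.8 and 22.6 in BMP6. Axin2, the scaffold that beta-catenin itself induces, was at 0.200 to 0.467 TPM over all 8 libraries and below the filter, with stimulated and vehicle values overlapping.

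Counted over the 24 genes tested, 10 were higher than their own vehicle in all 4 isolations: Wnt4, Wnt7b, Wnt9a, Wnt10b, Wnt11, Fzd1, Fzd3, Fzd6, Fzd7 and Kremen1. Any positive difference counted, and Fzd7 exceeded its vehicle in isolation 48 by a log2 change of 0.0035 only. Wnt11 passed the filter through its stimulated libraries, so its place in these counts is not free of the filter. Over all loci tested the share by the same rule was 8.19%. For the opposite, the count was 1 (Fzd5), against 9.20% of all loci. The libraries did not overlap and were higher for 8 of 24 genes after BMP4 (10.3% of all loci) and for 8 of 24 after BMP6 (10.6%), and lower for 1 (12%) and 2 (9.95%). The median log2 change of the 24 was 0.11 after BMP4 and 0.07 after BMP6, beside -0.02 and -0.002 over all loci. The 6 tenocyte genes, with Tnmd and Kera at 0 in all libraries, also summed higher in each stimulated library than in its vehicle: 101 and 151 TPM in BMP4 against 71.6 and 85.4 in vehicle_a, and 75.6 and 60.7 TPM in BMP6 against 55.3 and 41.7 in vehicle_b. Most of these sums was Scx, and the genes did not share a direction. Fmod (3.15 and 6.51 TPM in vehicle_a against 2.61 and 5.89 in BMP4) and Thbs4 were lower than their vehicle in every isolation. Mkx was mixed. The part of these sums in the results was not tested.

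Calls after adjustment were few. In limma without the block, 0 of the 24 genes passed after BMP4 (0.0237% of all loci called), 0 after BMP6 (0.0118%), 0 for the mean of both (0.071%) and 0 for the difference between the responses (0% of all loci). At an unadjusted p under 0.05 the counts were 5, 4, 7 and 1 of 24, beside 3.31%, 1.26%, 2.40% and 1.44% of all loci, and the fit to estimated reads (voom) also called 0 in each (0.0118%, 0.0177%, 0.0828% and 0% of all loci). With the isolation as a block, 1 of 24 was called after BMP4 (Wnt9a, 0.633% of all loci called), 1 after BMP6 (Wnt9a, 0.148%), 2 for the mean (Wnt9a and Fzd1, 0.674%) and 0 for the difference, where 6 of 24 had an unadjusted p under 0.05 beside 13.3% of all loci. With the isolation as a random term the counts were 3 after BMP4 (Wnt4, Wnt9a and Wnt10b, 2.41% of all loci), 3 after BMP6 (Wnt9a, Fzd1 and Kremen1, 0.408%), 5 for the mean (these 5 genes, 1.59%) and 0 for the difference (0.0591%). The blocked voom fit called 7 after BMP4 (5.99% of all loci), 6 of them higher (3.41%) and 1 lower (2.58%). It called 3 after BMP6 (0.426%), 6 for the mean (1.98%) and 0 for the difference (0.154%).

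**Figure D4:**
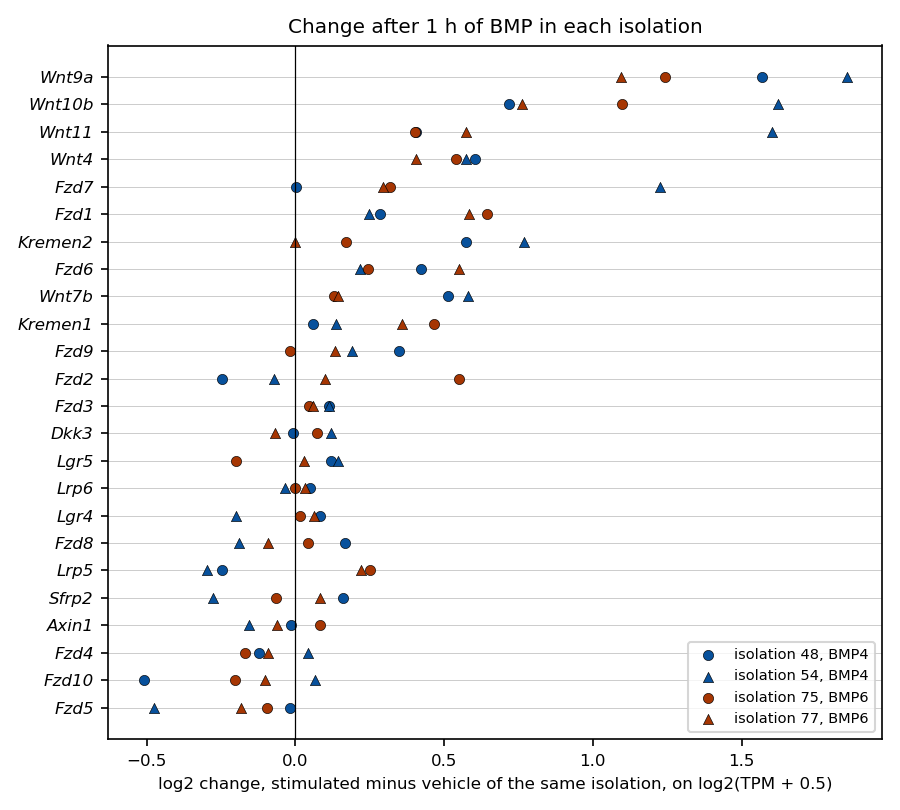
Change after 1 h of BMP in each isolation (horizontal axis, stimulated minus vehicle on log2(TPM + 0.5)) for the 24 genes tested (vertical, ordered by mean change). Blue marks BMP4 and brown BMP6, with circles for isolations 48 and 75 and triangles for isolations 54 and 77. Wnt9a lies between 1.09 and 1.85 in all 4, and Fzd7 and Wnt11 have 1 point each, from isolation 54, far to the right of the others.

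Few other genes of the pathway were called after the pulse. Of 15 tested genes for Wnt secretion and further membrane proteins, 20 of the destruction complex and transduction, 12 TCF and cofactor genes and 11 known beta-catenin targets, 0 were called after either BMP, or for their mean, without the block. With the block, Sdc4, a heparan sulphate proteoglycan, was called higher after BMP4 (log2 change 1.30, SE 0.09, adjusted p 0.0223 in limma) and for the mean (0.64, adjusted p 0.041). Sdc4 had 8.65 and 4.69 TPM in vehicle_a, 25.1 and 10.7 in BMP4, 55.2 and 68.2 in vehicle_b and 54.6 and 67.2 in BMP6. Stimulated and vehicle libraries did not overlap in the BMP4 experiment and did in the BMP6 experiment, and the difference between the responses did not pass (adjusted p 0.225 with the block). Ccn4, a matricellular target of beta-catenin, was called higher after BMP4 with the block (0.86, SE 0.07, adjusted p 0.0272). The medians of the 4 lists lay between -0.13 and 0.07 after BMP4 and between -0.02 and 0.05 after BMP6. The 6 reference genes of the BMP response (Id1, Id3, Smad6, Smad7, Lfng, Hes1) had medians of 1.68 and 2.29.

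The largest contrasts among these genes were between the unstimulated cultures of the 2 experiments. Of the 24 genes, 10 differed between vehicle_b and vehicle_a (27.2% of all loci called), 9 of them lower in vehicle_b (16.6% of all loci) and 1, Wnt7b, higher (10.6%). The random term gave 11 calls (27.0% of all loci) and voom 10 (24.9%). Some of these directions were fixed by the filter: Wnt4, Fzd10, Dkk3, Kremen2 and Lgr5 had a mean under 0.5 TPM in isolations 75 and 77, and Wnt7b in isolations 48 and 54, so these 6 passed through the other experiment alone. Of the 18 other genes 7 were called lower in vehicle_b and 0 higher. The median log2 change of the 24 was -0.85, beside -0.01 over all loci. It includes the 6 genes that passed through 1 experiment alone, so it is not free of the filter. No median of the 18 others was taken. The sum of the 49 genes was 303 and 333 TPM in vehicle_a and 114 and 110.3 TPM in vehicle_b, of which Kremen1 alone gave 50.5% and 45.0%, and 23.4% and 25.0%.

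Kremen1 was 5.59-fold higher in vehicle_a, with a log2 change of -2.46 (SE 0.09, adjusted p 0.00104 in limma), the smallest p of all 16908 loci in this comparison. Fzd2, a receptor of both branches of the pathway, had 27.2 and 35.8 TPM in vehicle_a and 4.19 and 3.32 in vehicle_b, a log2 change of -2.90 (SE 0.31, adjusted p 0.00625). The stimulated libraries of Fzd2 followed, with 22.8 and 34.0 TPM in BMP4 and 6.37 and 3.59 in BMP6. Wnt9a was 6.28-fold higher in vehicle_a (log2 change -2.38, SE 0.31, adjusted p 0.00869), beside changes of 1.71 and 1.17 after BMP4 and BMP6. Lrp5 was 3.87-fold higher in vehicle_a (-1.88, SE 0.22, adjusted p 0.00723), and Lgr4 was 2.19-fold higher (-1.05, SE 0.14, adjusted p 0.00869).

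Smaller differences were called for Wnt4 (-0.92, SE 0.22, adjusted p 0.0288), Fzd3 (-0.61, SE 0.15, adjusted p 0.031) and Fzd1 (-0.60, SE 0.12, adjusted p 0.0195). Kremen2, at 0 in both vehicle_b libraries, was called lower there (adjusted p 0.0318). Wnt7b went the other way, with a log2 change of 1.86 (SE 0.20, adjusted p 0.00628) from 0.085 TPM on average in vehicle_a to 1.64 in vehicle_b. The directions of Wnt4, Kremen2 and Wnt7b were fixed by the filter, which they passed through 1 experiment alone. Wnt10b, Wnt11, Fzd4, Fzd6, Fzd7, Fzd8 and Axin1 did not pass, with log2 changes between -0.58 and 0.38. The 7 other genes that did not pass were Fzd10 (log2 change -1.67, SE 0.80), Sfrp2 (-1.62, SE 0.56), Dkk3 (-1.47, SE 0.54), Fzd9 (-1.32, SE 0.77), Lgr5 (-0.88, SE 0.45), Fzd5 (-0.82, SE 0.37) and Lrp6 (-0.40, SE 0.13).

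**Figure D5:**
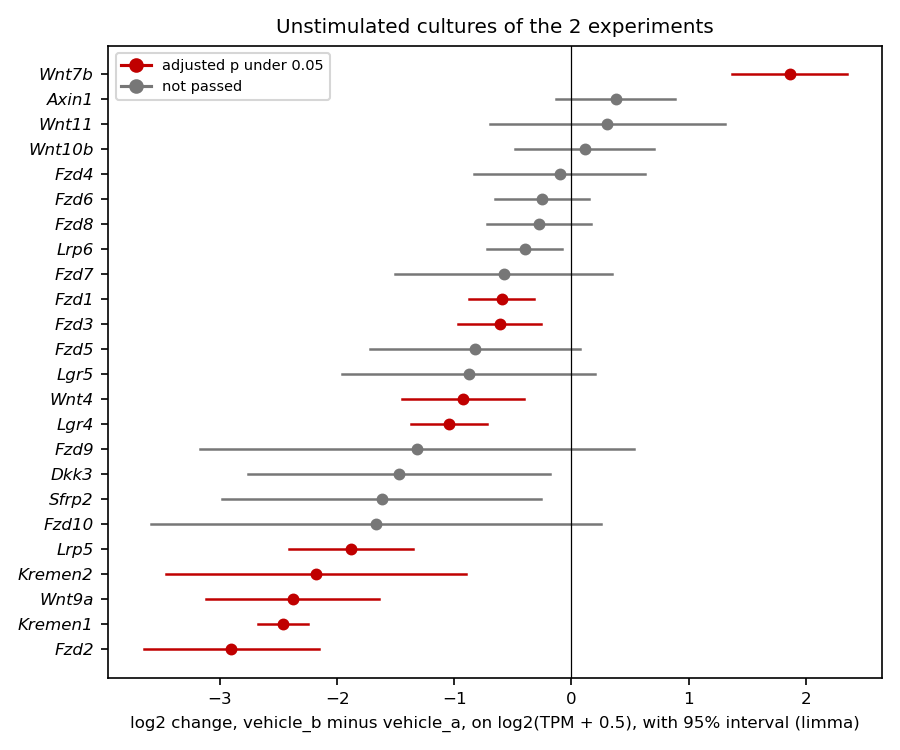
Log2 change between the unstimulated cultures (horizontal axis, vehicle_b minus vehicle_a on log2(TPM + 0.5)) for the 24 genes tested (vertical, ordered by change), with the 95% interval from limma. Red marks the 10 genes with an adjusted p under 0.05; Wnt7b at 1.86 is the only red point right of 0, and Fzd2 at -2.90 is the farthest to the left.

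These differences stand beside the summed myocyte genes of 6410 and 21640 TPM in vehicle_a and 686 and 971 TPM in vehicle_b, all 11 of them detected, whose part in the result was not tested. Muscle stem cell and myoblast genes summed to 2605 and 2792 TPM in vehicle_a and 1256 and 1662 in vehicle_b, mostly Des and Myod1. Their members did not share a direction. Higher in vehicle_b were Myf5 (52.3 and 38.2 against 94.0 and 86.4 TPM), Vcam1 (24.3 and 12.9 against 28.9 and 29.8) and Sdc4 (8.65 and 4.69 against 55.2 and 68.2). Marker sums of other cell types also differed between the vehicles. Pericyte and smooth muscle genes, 6 of 8 with a mean of at least 0.5 TPM, summed to 79.1 and 120.3 TPM in vehicle_a and 23.0 and 25.2 in vehicle_b, with Pdgfrb at 4.07 and 10.4 against 0.294 and 0.266 TPM. Fibroblast genes, 5 of 11 above that level, summed to 90.5 and 185 TPM against 54.6 and 50.3. They did not share a direction. Col1a1 stood at 13.8 and 70.2 against 0.946 and 1.82 TPM, and Col3a1 and Fbln1 were also lower in vehicle_b. Cd34 went the other way (1.91 and 0.318 against 12.4 and 15.6 TPM), and Ly6a overlapped between the vehicles. Pdgfra and Dcn stayed at or under 0.354 and 0.512 TPM in all libraries. Schwann cell genes, 6 of 6 above that level, summed to 281 and 411 TPM against 131 and 168, most of it Ncam1. Ngfr (5.69 and 11.1 against 15.0 and 21.9 TPM) and S100b (0.446 and 0.432 against 0.756 and 0.731 TPM) went the other way. The part of these sums in the result was not tested either. In bulk libraries a smaller number of cells of 1 type and less RNA per cell cannot be told apart. Most of the 10 calls rested on both vehicle_b libraries. Without either of them the changes kept their direction. For Fzd2 the log2 change lay between -3.05 and -2.76, and for Wnt9a between -2.48 and -2.28. A group of 1 library lowers the power for all loci, so calls lost there are no result about these genes. The same limit holds without the vehicle library of isolation 54.

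Genes of the wider pathway were called in both directions between the vehicles, beside 16.6% of all loci called lower in vehicle_b and 10.6% called higher. In the list for secretion and membrane proteins 7 of 15 were lower and 1 higher, with Sdc4 (log2 change 3.17, adjusted p 0.00924 in limma), the planar polarity receptor Ptk7 (-1.94, adjusted p 0.00471) and the secreted inhibitor Draxin (-1.90, adjusted p 0.0181) the largest. In the destruction complex list 5 of 20 were lower and 0 higher, the largest being Dact1, which binds Dishevelled (-3.01, adjusted p 0.0137), Dact3 (-1.56, adjusted p 0.0254) and Ctnnbip1, an inhibitor of beta-catenin (-0.97, adjusted p 0.0074). For TCF and cofactor genes 5 of 12 were lower, the largest being the coactivator Bcl9l (-1.42, adjusted p 0.0116), Tcf7l1 (-1.06, adjusted p 0.0161) and the corepressor Tle5 (-0.87, adjusted p 0.0217), and 1 was higher, Tle1 (0.69, adjusted p 0.0277). Among the beta-catenin targets 2 of 11 were higher, the cyclin Ccnd1 (3.39, adjusted p 0.0473) and Myc (2.29, adjusted p 0.0208), and 2 were lower, Ccn5 (-3.30, adjusted p 0.00529) and Fst (-2.13, adjusted p 0.0198). The medians of the 4 lists were -0.82, -0.26, -0.52 and -0.15, beside -0.01 over all loci. Whether genes of these lists passed the filter through 1 experiment alone was not checked. Their directions, counts and medians may therefore not be free of the filter.

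Fzd9, Fzd10, Dkk3, Kremen2 and Lgr5 were more than 2-fold higher in isolation 54 than in isolation 48. This held in the vehicle and the BMP4 library alike. How many of all loci passed this limit was not counted, neither here nor between isolations 75 and 77. Fzd10 had 0.906 TPM in the vehicle of isolation 48 against 4.01 in that of isolation 54, and 0.487 against 4.22 in the BMP4 libraries. Fzd9 had 1.2 against 6.30 TPM in the vehicles and 1.66 against 7.25 after BMP4. Dkk3, Kremen2 and Lgr5, another Rspo receptor, were likewise more than 2-fold higher in both libraries of isolation 54, by 3.87-fold, 2.90-fold and 3.33-fold or more. Dkk3 and Lgr5 had means of 0.43 and 0.40 TPM in isolation 48 and passed the filter only through isolation 54. Fzd10 and Kremen2 had means of 0.70 and 1.37 TPM in isolation 48 and of 0.25 and 0.02 TPM in isolations 75 and 77. Their overall means also reached the filter only with isolation 54. The higher levels of Dkk3, Lgr5, Fzd10 and Kremen2 in isolation 54 are thus not free of the filter. Between isolations 75 and 77 the same limit was passed by Wnt11, higher in 77, and Sfrp2, lower in 77. In isolations 75 and 77 Fzd9 had 0.821 to 1.03 TPM and Fzd10 had 0.183 to 0.30 TPM. The summed myocyte genes were 21640 against 6410 TPM in the same vehicles, and their part in these differences was not tested. No test was made here, since each isolation has 1 library per treatment.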

How the data were processed

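Strand-specific libraries were made from poly(A) RNA (500 ng RNA input) of 8 cultures and read to 50 nt from 1 end, per the labels' protocols. The submitters' processing notes name STAR 2.7.11a, SAMtools 1.17 and GRCm39. StringTie 2.2.1, run by the authors on a merged annotation of their own, gave TPM values, FPKM values and a coverage signal for each locus, per the file headers, and was given no strand option. Reads of overlapping, antisense or near-identical genes may therefore be shared between loci. The deposited transcript files hold the same quantities per transcript model as text attributes. TPM are shares of a library.

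Groups were taken from the label of the treatment. Reads per library were estimated as coverage times length over 50 nt. The 16908 loci whose mean was 0.5 TPM or more were tested on log2(TPM + 0.5) with limma 3.58.1 (R 4.3.3), using a mean per group and a moderated variance that follows the level; fold changes on this scale understate those of low genes. Adjusted p values are two-sided Benjamini-Hochberg values over all loci tested, with a threshold of 0.05. Of the 5 comparisons 2 set a BMP against its vehicle, 1 took the mean of these changes, 1 took BMP6 minus BMP4, and 1 set vehicle_b against vehicle_a. The scripts were tested on simulated data.

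Libraries of 1 isolation carry its number in the labels and are thus paired, and deviations from the group means correlated at 0.707 across loci for isolations 48 and 54 and at 0.455 for 75 and 77. The fit with isolation as a fixed term is given where it changed a call.

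Members and gene lists were chosen with earlier results of these data known. Genes named with statistics are the members called in either fit, the 2 members with the smallest p per comparison, list genes called after BMP, and the 3 largest called changes per list between the vehicles. Alternatives were pseudocounts of 0.1 and 2, no filter or one at 2 TPM, quantile normalization, FPKM scaled to the upper quartile, voom on estimated reads, blocked fits (isolation as a fixed or a random term, or with voom), only the libraries compared, and leaving out each library or isolation. Promoter sequences are from RefSeq (GRCm38.p6).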

Additional observations from a re-analysis of the deposited data

Results flagged for a closer look

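Lrp5 was lower than its vehicle in both isolations given BMP4 and higher in both given BMP6, and the BMP6 response exceeded the BMP4 response by 0.51 on the log2 scale (SE 0.31). Fzd2 had the same pattern, with a difference of 0.48 (SE 0.44). Neither difference passed the test in limma, with an adjusted p of 1.00 for both without the block and of 0.253 and 0.365 with it. Over all loci tested 9.41% had this pattern, and 7.52% had the opposite one, which 0 of the 24 genes showed. Groups of 2 libraries were too small to look for single libraries far from the rest.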

How the results depend on the processing

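Without the block, 0 of the 24 genes were called after BMP4, after BMP6 and for the mean of both under every scaling, filter and pseudocount tried and without each library. The replicate block as a fixed term gave 1, 1 and 2 calls, as a random term 3, 3 and 5, and with voom on estimated reads 7, 3 and 6. Leaving out each isolation in the blocked fit gave 1 to 2 calls after BMP4, 0 to 1 after BMP6 and 0 to 3 for the mean. Among these, the difference between the responses had 0 calls in each fit. Between the vehicles the 10 calls became 7 to 11 under the other settings that kept both libraries of each group compared. Calls were lost without either vehicle_a library, without either vehicle_b library and without either BMP6 library, and most of all without a vehicle_b library. These fits leave 1 library in a group, which lowers the power for all loci. Of 257 recomputed values of single genes over 14 results, 0 changed direction, 35 no longer passed and 21 newly passed. For Wnt9a the log2 change lay between 1.29 and 2.14 after BMP4, with adjusted p values from 0.000205 to 1.00, and between 0.84 and 1.34 after BMP6, with adjusted p values from 0.0092 to 1.00. For Fzd1 the mean change lay between 0.38 and 0.48. Wnt7b in vehicle_a, with 11 and 12 estimated reads, is limited by depth: its change between the vehicles lay between 0.80 and 4.05. For Kremen2, at 0 in vehicle_b, it lay between -7.96 and -0.94, and for Wnt4 between -1.66 and -0.39.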

Other observations

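Several Wnt genes lie side by side in the genome. Wnt10b lies 11707 bases from Wnt1, which reached 0.0536 TPM in 1 library and was at 0 in the others. Wnt9b, 24329 bases from Wnt3, was at 0 in all libraries, and Wnt3 reached 0.0184 TPM in 1. Wnt6 and Wnt10a, 6194 bases apart, reached at most 0.386 and 0.790 TPM.

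The deposited transcript models split Wnt9a into 2 forms of 3320 and 3318 bases that differ by 2 bases at the start. The longer one took 78.2% of the gene's TPM in the BMP4 library of isolation 48 and 0 to 11% in the other 7 libraries, so values per model were not used.

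Rspo1, a ligand of the Lgr receptors, was at 0 in both libraries of isolation 54, at 0.348 and 0.306 TPM in those of isolation 48, and at 0.444 to 0.715 TPM in isolations 75 and 77. Wnt5a, a ligand of the branch without beta-catenin, had 0.122 to 0.229 TPM in isolations 48 and 54 and at most 0.0364 TPM in isolations 75 and 77. Neither was tested, since their means lay under 0.5 TPM.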
